A study of Homo sapiens with 18 samples.

Results

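The FAM14 family, also called the ISG12 family, was followed through 18 RNA sequencing libraries of the MCF10 breast cancer progression model. The family is made up here of 4 genes, IFI27, IFI6, IFI27L1 and IFI27L2, which were taken by symbol from the 35933 genes with values in the deposited table. The family was chosen by the measured values of IFI27, which changed strongly in all 3 lines, and not in the same direction, so the IFI27 values are given as a description with no test, and only the other members are read against the fit of the whole table. All 4 genes had a mean normalized count of at least 10 in each line, so none was lost to the filter on low values.

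The libraries came from 3 lines grown in the same medium with horse serum, insulin, hydrocortisone, cholera toxin and epidermal growth factor. MCF10A is a spontaneously immortalized breast epithelial line that does not form tumours, MCF10AT1 is MCF10A with a stably integrated mutated HRas, and MCF10CA1h was obtained from MCF10AT1 by passage as mouse xenografts. In each line, 3 libraries with the genotype Control Negative CRISPR (the control) stand beside 3 with the genotype METTL3 CRISPR knockdown (the labelled knockdown), each with the letters a, b and c. METTL3 is the main enzyme that writes N6-methyladenosine (m6A) into mRNA. Control cells received a CRISPR construct with a control guide and knockdown cells one with a guide to the first exon of METTL3; both were sorted for mCherry and grown from single cells, and each group is 1 such CRISPR line. The spread between a, b and c therefore holds no difference between CRISPR lines, and a difference between groups cannot be told apart from a difference between those clones. The labels name polyA RNA, whereas the protocol describes total RNA depleted of ribosomal RNA.

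FAM14 proteins are small and hydrophobic and sit in intracellular membranes. IFI27 and IFI6 are classical interferon-stimulated genes. Type I and type III interferons bind receptors coupled to the kinases JAK1 and TYK2, and the resulting complex, which holds STAT2 and IRF9, binds interferon-stimulated response elements in front of such genes. IFI6 is known for guarding mitochondria against apoptosis and for blocking flavivirus replication at the endoplasmic reticulum, where the chaperone HSPA5 assists it. IFI27, first found as an oestrogen-induced gene in breast cancer cells, is known as a mitochondrial and nuclear membrane protein that binds the nuclear receptor NR4A1 and the ubiquitin ligase subunit SKP2. IFI27L1 and IFI27L2 are close relatives of IFI27, about which less is known.

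IFI27L1, IFI27 and IFI27L2 lie side by side on chromosome 14, and IFI6 lies on chromosome 1. By the GENCODE annotation of hg38, IFI27L1 (ENSG00000165948) spans chr14:94081301-94103846 on the + strand, IFI27 (ENSG00000165949) spans chr14:94104836-94116695 on the + strand, and IFI27L2 (ENSG00000119632) spans chr14:94127779-94130253 on the - strand. IFI6 (ENSG00000126709) spans chr1:27666064-27672212 on the - strand. Their canonical transcripts are 647, 725, 451 and 812 bases long in that order, and these lengths were used wherever levels of different genes are compared. The upstream sequences are shown because those of IFI27 and IFI6 hold, and those of the other members lack, the letters of the interferon-stimulated response element. In the 250 bases before the RefSeq start site (GRCh38.p14), the motif, GAAA followed by any 2 bases and GAAA again, was searched on both strands. It occurs 2 times before IFI27, 3 times before IFI6 and 0 times before IFI27L1 and IFI27L2. The stretches outside annotated exons are printed 5′ to 3′ on the strand of the gene, with matches in capitals, for IFI27 (chr14:94110486-94110677, + strand), IFI6 (chr1:27672213-27672442, - strand) and, as a member without a match, IFI27L2 (chr14:94129605-94129854, - strand).
IFI27: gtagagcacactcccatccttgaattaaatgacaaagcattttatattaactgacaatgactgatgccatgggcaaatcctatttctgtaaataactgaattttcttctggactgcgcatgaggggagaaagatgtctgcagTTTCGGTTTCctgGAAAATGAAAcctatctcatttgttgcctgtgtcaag
IFI6: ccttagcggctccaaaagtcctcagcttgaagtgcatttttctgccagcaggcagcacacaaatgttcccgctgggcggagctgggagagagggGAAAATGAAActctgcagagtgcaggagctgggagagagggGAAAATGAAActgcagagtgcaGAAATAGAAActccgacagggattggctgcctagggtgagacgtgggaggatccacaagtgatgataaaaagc
IFI27L2: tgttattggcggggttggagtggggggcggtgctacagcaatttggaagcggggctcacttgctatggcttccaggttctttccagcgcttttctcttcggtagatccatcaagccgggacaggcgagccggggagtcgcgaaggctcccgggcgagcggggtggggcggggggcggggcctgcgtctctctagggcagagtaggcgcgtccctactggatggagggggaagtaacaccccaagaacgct

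The motif was found in 3.02% of 35116 upstream windows of this length. By gene, it was found for 1014 of 27305 genes (3.71%), for 18 of the 27 interferon-stimulated effectors with a window (66.7%) and for 0 of 10 genes of the receptor and JAK-STAT list. In IFI27 the first match is on the other strand, the matches begin 108 and 95 bases before the start site used here, and the STAT-like letters TTCNNNGAA, present in 6.57% of windows, overlap both of them. RefSeq holds a second start site for IFI27, which is also the start of the GENCODE canonical transcript, and from it the same matches begin 187 and 174 bases upstream. In IFI6 all 3 matches are on the strand of the gene and begin 156, 115 and 93 bases before the start site. The oestrogen response letters, GGTCA and TGACC with any 3 bases between them, were in none of the members' windows and in 0.0399% of all windows. A match describes the letters and not a bound site.

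**Figure D1:**
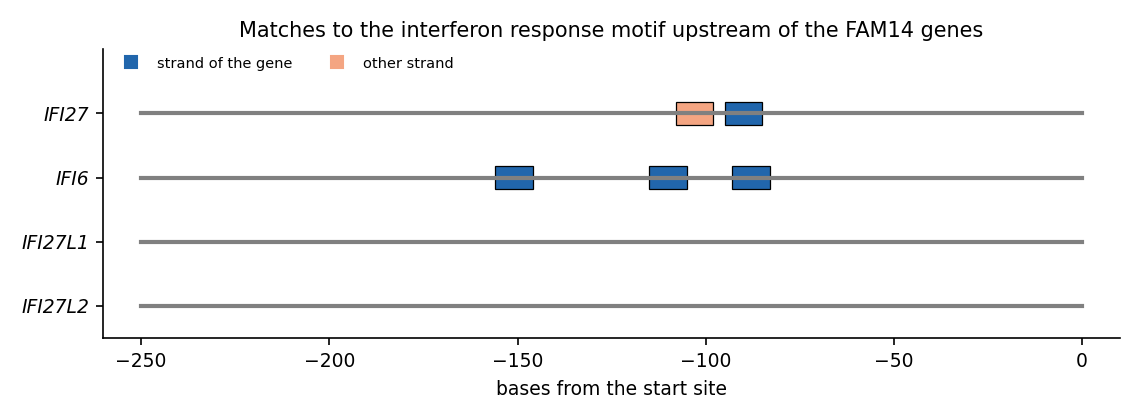
Matches to the response element motif (GAAA, any 2 bases, GAAA) in the 250 bases upstream of each gene, with bases from the RefSeq start site on the horizontal axis, 1 row per gene and boxes coloured by strand. IFI27 has 2 matches and IFI6 has 3 between 156 and 93 bases before the start site (for IFI27 the more upstream of its RefSeq start sites), and IFI27L1 and IFI27L2 have none.

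The transcripts themselves also differ in GGACT, the most frequent form of the m6A consensus. The canonical transcripts of IFI27 and IFI27L1 hold 3 each (4.14 and 4.64 per kb), whereas IFI27L2 and IFI6 hold 1 each (2.22 and 1.23 per kb). Over 20046 canonical protein-coding transcripts the median was 0.925 per kb. Of 1097 transcripts between 451 and 812 bases long, 48.5% held at least 1 and 3.56% at least 3. No m6A was measured in these libraries, so the counts describe sequence. For reads to be assigned to the right gene the transcripts must differ, and of all words of 31 bases in the canonical transcripts, IFI27 and IFI27L2 shared 1 with each other and IFI27L1 shared 0 of 617. In IFI6, 191 of 782 words (24.4%) occurred in other genes outside the family, so its values are the least certain in this respect.

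Normalized counts summed to between 21347352 and 31681834 per library, and no counting error can be given without the reads behind them. No decrease of METTL3 RNA was shown in these libraries for MCF10A (log2 fold change 0.33, limma adjusted p = 0.618) or MCF10AT1 (-0.17, adjusted p = 0.707). In MCF10CA1h its log2 fold change was -0.49 (limma adjusted p = 0.0234, but 0.0742 without an intensity trend and 0.501 in a joint fit of all lines). The exact two-sided permutation p was 0.3, 0.3 and 0.1 in that order, and 0.1 is the smallest that 3 libraries against 3 allow. Protein was not measured in these libraries. The paper reports depletion of the protein by Western blot in the knockdown candidates of each line, with a lesser effect on the mRNA by real-time PCR. The RNA values therefore do not decide whether the protein was lower. The summed epithelial markers were between 97918 and 444089 in 5 of the 6 groups. In the labelled knockdown of MCF10AT1 they were between 25971 and 55136. In that group 5 of 9 tested epithelial markers were lower and 5 of 7 tested mesenchymal markers higher, where 5.96% of all genes were lower and 7.07% higher. Of those 5 higher ones, THY1, CDH2 and COL3A1 had control means of 1.53, 1.61 and 0.75. They passed the filter on low values through the labelled knockdown. EPCAM fell there from 3785 ± 439 to 107 ± 24.7 (SD, n = 3), while THY1 rose from 1.53 ± 0.57 to 2040 ± 734 (SD, n = 3). The epithelial KRT8 and KRT18 were not past the threshold there (limma adjusted p = 0.473 and 0.516) and had means of 14957 ± 5186 and 23183 ± 8292 (SD, n = 3). Nor were the mesenchymal COL1A1 and PDGFRB (adjusted p = 0.789 and 0.940). The part of this shift in the MCF10AT1 results was not tested. Of the 5 leukocyte markers, PTPRC, which defines the class, was listed at no more than 5.31 in any library and CD3E at no more than 1.69, whereas CD68, a lysosomal protein gene that is abundant in macrophages, reached 2006 in a control of MCF10A. The summed leukocyte markers were between 166 and 2009 over all libraries. Control b of MCF10A stood apart from controls a and c in interferon-stimulated genes: of 34 effectors it held the lowest control value in 30, so MCF10A results are also given without it. In bulk RNA, fewer cells expressing a gene and less RNA per cell cannot be told apart.

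The 4 members differed in the width of their ranges. From the lowest to the highest library the normalized count of IFI27 spanned 2.22 to 6647, a ratio of 2994, and that of IFI6 spanned 11.8 to 7339, a ratio of 620. The ratio was 20.1 for IFI27L2 and 5.08 for IFI27L1. The family was picked by the changes of IFI27, so the wide range of that gene is no finding. No member was listed at 0 in any library.

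**Figure D2:**
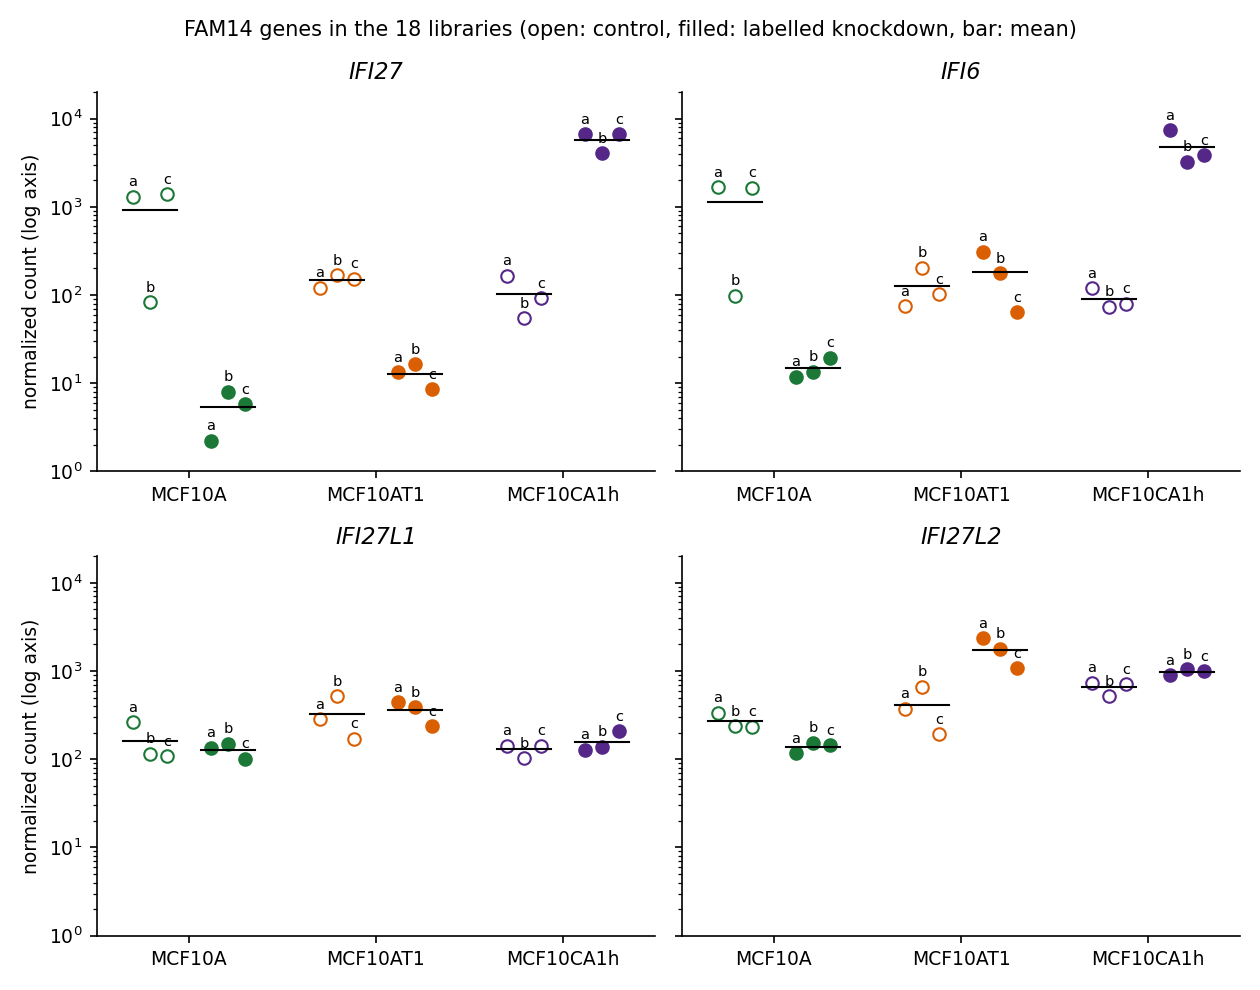
Normalized counts of the 4 FAM14 genes in the 18 libraries on a log axis, with 3 libraries (letters a, b, c) per group, open circles for controls, filled circles for the labelled knockdown and bars for group means. IFI27, by whose changes the family was picked, and IFI6 span ratios of 2994 and 620 between the lowest and highest library, against 20.1 for IFI27L2 and 5.08 for IFI27L1. Control b of MCF10A lies far below controls a and c in the upper panels.

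IFI27, the gene for which the family was chosen, was almost silent in the labelled knockdown of MCF10A. Its normalized counts were 1301, 83.0 and 1388 in control a, b and c of MCF10A and 2.22, 8.05 and 5.75 in the labelled knockdown. The groups did not overlap, although control b was far below the other controls. The means were 924 ± 730 and 5.34 ± 2.94 (SD, n = 3), a log2 fold change of -6.52 on the scale of the normalized count plus 1, and -7.85 without control b.

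In MCF10AT1 IFI27 was also lower in the labelled knockdown. Its controls held 121, 168 and 152 normalized counts and the labelled knockdown 13.3, 16.4 and 8.61. The groups did not overlap and the replicates of each were close to each other. The mean was 147 ± 24.0 in the control and 12.7 ± 3.90 in the labelled knockdown (SD, n = 3), a log2 fold change of -3.46.

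In MCF10CA1h IFI27 was higher in every labelled knockdown library. The controls held 165, 54.4 and 91.9 normalized counts, the labelled knockdown 6647, 4075 and 6618. The groups did not overlap, and these were the highest IFI27 values of all libraries. The mean was 104 ± 56.4 in the control and 5780 ± 1477 in the labelled knockdown (SD, n = 3), which is 55.6-fold higher (log2 fold change 5.89). These differences are the ones by which the family was picked, so non-overlap of IFI27 in all 3 lines is no finding.

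By level, the groups ran from the labelled knockdown of MCF10CA1h through the controls of MCF10A, MCF10AT1 and MCF10CA1h to the labelled knockdown of MCF10AT1 and, lowest, that of MCF10A. In this order neighbouring control groups overlapped, and no other neighbours did.

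IFI6, which guards mitochondria against apoptosis, moved like IFI27 in MCF10A and MCF10CA1h but not in MCF10AT1. In MCF10A its normalized counts were 1678, 98.3 and 1640 in the controls and 11.8, 13.5 and 19.5 in the labelled knockdown. The groups did not overlap, and control b was again the low one. The mean fell from 1139 ± 901 to 14.9 ± 4.03 (SD, n = 3), with a log2 fold change of -5.38 (standard error 0.98, 95% interval -7.63 to -3.12, limma adjusted p = 0.0333). IFI6 was the only one of the 3 tested members past the threshold in MCF10A, where 2.65% of 15416 genes were, and for groups without overlap the share of all genes was 23.9%. Without control b the log2 fold change was -6.73 (adjusted p = 0.00240). The call was lost without control c (adjusted p = 0.0825) or without labelled knockdown a, b or c (0.123, 0.102 and 0.108), and without an intensity trend in limma (0.0806), and the direction held in each case. In these libraries KRT5 (0.90, adjusted p = 0.0455) was the 1 cell type marker past the threshold. The summed markers did not overlap between control and labelled knockdown for epithelial (166413 to 201421 and 252536 to 299048), mesenchymal (8678 to 15697 and 5286 to 7962), leukocyte (609 to 2009 and 230 to 506) and endothelial markers (31.1 to 218 and 337 to 535). Each sum follows its most abundant genes. Of 8 tested epithelial markers 4 were higher and 4 lower, and all 4 tested mesenchymal markers were lower. Of the latter, CDH2 (control mean 13.0, labelled knockdown 7.91) passed the filter on low values through the control. CD68 was lower (log2 fold change -1.77) but ITGAM higher (2.05), and PECAM1 was higher (3.13) but KDR lower (-2.72). The part of these markers was not tested.

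In MCF10CA1h IFI6 rose about as far as IFI27 did. It had 120, 74.0 and 79.4 normalized counts in the controls and 7339, 3253 and 3833 in the labelled knockdown. The groups were far apart, with library a the highest within each group. The mean was 91.1 ± 25.1 in the control and 4808 ± 2211 in the labelled knockdown (SD, n = 3), which is 52.8-fold higher (log2 fold change 5.65, standard error 0.28, 95% interval 5.02 to 6.28, adjusted p = 1.46e-05). IFI6 and IFI27L2 were the tested members past the threshold here, where 12.8% of 15127 genes were and 32.7% had groups without overlap. Library a of the labelled knockdown held the highest value of its group in 33 of 34 effectors, and without it the IFI6 log2 fold change was 5.29 (adjusted p = 5.2e-06). Markers of cell types also moved in these libraries. The epithelial KRT14 (log2 fold change 2.15), KRT17 (0.71) and KRT5 (0.36), the mesenchymal FN1 (1.92) and CD68 (1.05, from 250 ± 37.3 to 537 ± 175, SD, n = 3, adjusted p = 0.0144) rose, and the mesenchymal COL3A1 (-1.22) and the endothelial PECAM1 (-1.20, adjusted p = 0.0389) fell. The summed markers were between 313628 and 341965 in the control and between 415001 and 444089 in the labelled knockdown for epithelial cells, 27215 to 32024 and 39351 to 50880 for mesenchymal, 251 to 301 and 371 to 721 for leukocyte, and 96.3 to 137 and 39.7 to 73.1 for endothelial cells. Of the tested epithelial markers 6 were higher and 2 lower, and of the mesenchymal ones 4 were higher and 3 lower. For leukocyte markers 1 was higher and 1 lower, and 2 endothelial markers were lower. PTPRC was listed at no more than 1.79 in these 6 libraries and CD3E at 0, and the part of the other markers in the IFI27 and IFI6 rise was not tested.

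In MCF10AT1 the IFI6 values of the groups overlapped. The controls held 74.5, 204 and 102 normalized counts and the labelled knockdown 310, 177 and 63.7. Library a of the labelled knockdown was the highest and library c of the same group the lowest of all 6. The means were 127 ± 68.0 and 184 ± 123 (SD, n = 3), with a log2 fold change of 0.39 (standard error 0.64, 95% interval -1.07 to 1.85, adjusted p = 0.736). The interval reaches from a decrease to an increase, so no difference was detectable. Its direction turned without labelled knockdown a, to -0.12.

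The effect on IFI6 differed between every pair of lines when tested as an interaction in 1 fit of all 18 libraries. The log2 effect in MCF10CA1h exceeded that in MCF10A by 11.02 (95% interval 8.55 to 13.50, limma adjusted p = 6.3e-05), in a comparison where 5.34% of genes were past the threshold. MCF10AT1 exceeded MCF10A by 5.77 (interval 3.30 to 8.24, adjusted p = 0.00188, 21.6% of genes past the threshold), and MCF10CA1h exceeded MCF10AT1 by 5.26 (interval 2.79 to 7.73, adjusted p = 0.00446, 18.2% of genes). These comparisons share libraries with each other. IFI6 thus fell in MCF10A, rose in MCF10CA1h and lay between them in MCF10AT1. By level, the labelled knockdown of MCF10CA1h was highest and that of MCF10A lowest, and neither overlapped with the 4 groups between them. Those 4 ran in the order MCF10A control, MCF10AT1 labelled knockdown, MCF10AT1 control and MCF10CA1h control, and neighbours among them overlapped.

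**Figure D3:**
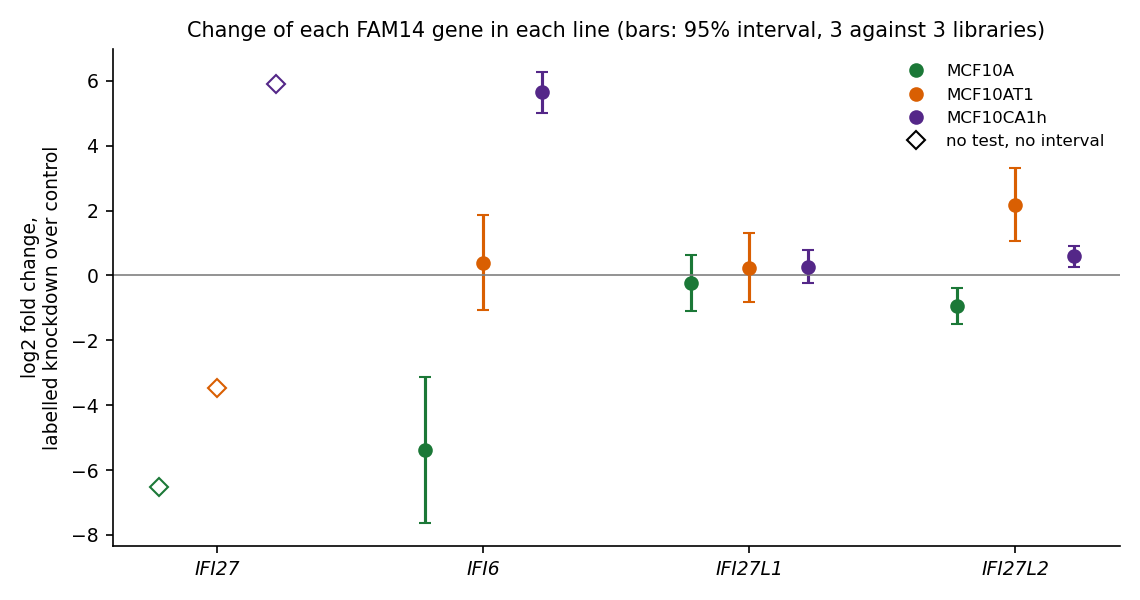
Log2 fold change of the labelled knockdown over the control (vertical axis) of the 4 genes in the 3 lines, from 3 against 3 libraries, with bars for 95% intervals and open diamonds without interval for IFI27, which was not tested. IFI6 goes from -5.38 in MCF10A to 5.65 in MCF10CA1h, IFI27L1 stays between -0.23 and 0.27, and IFI27L2 reaches 2.18 in MCF10AT1.

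IFI27L2, the neighbour of IFI27 with no match to the motif, followed another order. In MCF10AT1 its normalized counts were 373, 665 and 193 in the controls and 2344, 1786 and 1081 in the labelled knockdown. Every labelled knockdown library was above every control. The mean rose from 410 ± 238 to 1737 ± 633 (SD, n = 3), which is 4.24-fold higher (log2 fold change 2.18, standard error 0.49, 95% interval 1.07 to 3.30, adjusted p = 0.0218). IFI27L2 was the only one of the 3 tested members past the threshold in MCF10AT1, where 13.0% of 16050 genes were and 32.8% had groups without overlap. Without control a, labelled knockdown a or labelled knockdown b the adjusted p was 0.0805, 0.0867 and 0.0927, with log2 fold changes of 2.20, 1.93 and 2.13. The same 3 labelled knockdown libraries carried the shift in epithelial and mesenchymal markers given above, whose part in this rise was not tested.

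IFI27L2 also rose in MCF10CA1h, by less. The controls held 736, 521 and 714 normalized counts and the labelled knockdown 894, 1042 and 997. The groups did not overlap. The mean was 657 ± 118 in the control and 977 ± 76.1 in the labelled knockdown (SD, n = 3), with a log2 fold change of 0.59 (standard error 0.15, 95% interval 0.26 to 0.92, adjusted p = 0.0276). The call was lost without control b (0.43, adjusted p = 0.0577) and without labelled knockdown b (0.54, adjusted p = 0.0985) or c (0.57, adjusted p = 0.0789), and the adjusted p was 0.0922 without an intensity trend and 0.681 in a joint fit of all 18 libraries.

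In MCF10A IFI27L2 was lower in the labelled knockdown without passing the threshold. Its normalized counts were 338, 235 and 234 in the controls and 116, 154 and 143 in the labelled knockdown. The groups did not overlap. The means were 269 ± 59.8 and 138 ± 19.6 (SD, n = 3), with a log2 fold change of -0.95 (standard error 0.24, 95% interval -1.51 to -0.39, adjusted p = 0.0875).

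Between lines, the log2 effect on IFI27L2 was higher in MCF10AT1 than in MCF10A by 3.13 (95% interval 2.06 to 4.20, adjusted p = 2.7e-04, 21.6% of genes past the threshold). It was lower in MCF10CA1h than in MCF10AT1, the difference being -1.60 (interval -2.67 to -0.53, adjusted p = 0.0369, 18.2% of genes past the threshold). That difference lost its call without control a or c or labelled knockdown a or b of MCF10AT1 (adjusted p between 0.0606 and 0.0912) and without control a or c or labelled knockdown a, b or c of MCF10CA1h (adjusted p between 0.0599 and 0.0859). For MCF10CA1h against MCF10A the difference of 1.53 (interval 0.47 to 2.60) had an adjusted p of 0.0957, and of 0.0292 with the replicate letter as a block. By level, IFI27L2 was highest in the labelled knockdown of MCF10AT1, then in that of MCF10CA1h, and lowest in that of MCF10A. The controls of MCF10CA1h, MCF10AT1 and MCF10A lay between in that order. They overlapped with neighbouring control groups but with no labelled knockdown.

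IFI27L1, the upstream neighbour of IFI27, was not shown to change in any line. Its normalized counts in MCF10A were 264, 116 and 109 in the controls and 135, 150 and 101 in the labelled knockdown. In MCF10AT1 they were 284, 515 and 172 against 444, 392 and 237, and in MCF10CA1h 142, 103 and 142 against 128, 139 and 207. The groups overlapped in every line, and so did all neighbours in the order of the 6 groups by level. The log2 fold changes were -0.23 (95% interval -1.09 to 0.63, adjusted p = 0.799), 0.24 (-0.82 to 1.30, adjusted p = 0.775) and 0.27 (-0.24 to 0.79, adjusted p = 0.491) in MCF10A, MCF10AT1 and MCF10CA1h. The interval was narrowest in MCF10CA1h, and those of the other lines leave room for larger changes. The sign turned without control a of MCF10A (0.18) and without control c of MCF10AT1 (-0.14). None of the 3 differences of its effect between lines passed the threshold (adjusted p between 0.601 and 0.977).

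Beyond the family on chromosome 14, DDX24, an RNA helicase gene whose start lies head to head with IFI27L1, had log2 fold changes of 0.15, 0.31 and 0.29 in MCF10A, MCF10AT1 and MCF10CA1h, with adjusted p of 0.712, 0.661 and 0.0714. OTUB2, a deubiquitinase gene beyond DDX24, fell in MCF10AT1 (-3.64, adjusted p = 0.00191) and rose in MCF10CA1h (0.81, adjusted p = 0.0247). PPP4R4 and SERPINA10 on the other side were not past the threshold where tested (adjusted p between 0.208 and 0.537). Beside IFI6, 2 lowly listed long noncoding RNAs rose with it in MCF10CA1h. LINC02574, which overlaps the end of IFI6 on the same strand, was listed at 0 in the 3 controls and in the labelled knockdown at 24.7 ± 30.8 (SD, n = 3, limma adjusted p = 0.0223). ENSG00000225886, which crosses the start of IFI6 on the opposite strand, went from 0.92 ± 0.16 to 23.0 ± 12.4 (SD, n = 3, log2 fold change 3.46, adjusted p = 0.00742). Both passed the filter on low values only in MCF10CA1h, and there through the labelled knockdown. The canonical IFI6 transcript, searched on both strands, shared words of 31 bases with LINC02574 but not with ENSG00000225886. Other IFI6 transcripts were not searched, and the strand setting of the counting is not given in the sources used here. Reads of IFI6 and of these 2 genes therefore cannot be told apart with certainty. FAM76A, a neighbour of IFI6 further off, was not past the threshold in any line (adjusted p between 0.151 and 0.688).

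Per kb of canonical transcript, the mean control levels in MCF10A were 1402 ± 1110 for IFI6 and 1274 ± 1006 for IFI27 (SD, n = 3), beside 597 ± 133 for IFI27L2 and 252 ± 136 for IFI27L1. IFI6 and IFI27 led in controls a and c, and in control b IFI27L2 led with 522 per kb, before IFI27L1 with 179, IFI6 with 121 and IFI27 with 114. In the controls of the other lines IFI27L2 had the highest mean, with 909 ± 528 per kb in MCF10AT1 and 1456 ± 263 in MCF10CA1h, and IFI6 the lowest with 156 ± 83.8 and 112 ± 30.9 per kb. In the labelled knockdown of MCF10CA1h IFI27 and IFI6 reached 7972 ± 2037 and 5922 ± 2723 per kb, and IFI27L2 2167 ± 169.

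The control levels of the tested members were compared between lines in a fit of the 9 control libraries. IFI6 was lower in MCF10CA1h than in MCF10A (log2 difference -2.85, 95% interval -4.97 to -0.73, adjusted p = 0.0390, in a comparison with 37.8% of genes past the threshold). Without control b of MCF10A this was -4.20 (adjusted p = 0.00104), whereas the call was lost without control a or c of MCF10A (adjusted p = 0.118 and 0.143), control a of MCF10AT1 (0.0546) or control a, b or c of MCF10CA1h (0.0755, 0.0996 and 0.103). MCF10AT1 minus MCF10A gave -2.47 for IFI6 (adjusted p = 0.0740) and, without control b of MCF10A, -3.83 (adjusted p = 0.00330), where 28.1% of genes were past the threshold. IFI27L2 was higher in MCF10CA1h than in MCF10A by 1.29 (interval 0.38 to 2.19, adjusted p = 0.0314), a call lost without control b or c of MCF10A (adjusted p = 0.0972 and 0.0954) and without control a, b or c of MCF10CA1h (0.101, 0.0505 and 0.0974). IFI27L1 passed the threshold in none of the 3 control comparisons (adjusted p between 0.0905 and 0.721). Between MCF10CA1h and MCF10AT1, where 21.8% of genes differed, no tested member was past the threshold. Without 1 library more of these differences passed. IFI27L1 was higher in MCF10AT1 than in MCF10A without control a of MCF10A (1.37, adjusted p = 0.0440) or control c of MCF10AT1 (1.35, adjusted p = 0.0264), and IFI27L2 likewise without the latter (0.91, adjusted p = 0.0324). For MCF10CA1h minus MCF10AT1 the same was true of IFI27L1 without control c of MCF10AT1 (-1.57, adjusted p = 0.0207) and of IFI27L2 without control b of MCF10AT1 (1.27, adjusted p = 0.0230).

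IFI27 and IFI6 ran together over most libraries. Over the 18 libraries their log2 values had a Pearson r of 0.912, and their deviations from the group means had an r of 0.875. Without control b of MCF10A, left out after the data were seen, these were 0.913 and 0.551 over 17 libraries, so the likeness of the deviations rests in large part on that library. Of 15896 genes ranked by r with IFI27, IFI6 came second, behind IFIT1, a sensor of viral RNA caps (0.950), and before PARP12 (0.899), TGFBI (0.899) and DUSP8 (0.897). The genes most like IFI6 were IFIT1 (0.961), the ubiquitin-like modifier ISG15 (0.955), the transcription factor IRF7 (0.928), IFI27 (0.912) and the transporter SLC15A3 (0.911). IFI27L2 and IFI27L1 ranked 3862 and 9915 by likeness to IFI27, with r of 0.249 and -0.0982. They were closer to each other, with an r of 0.543 and an r of 0.857 for the deviations. These correlations describe 18 libraries that share 6 groups and 3 lines, so the points are not independent.

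IFI27 and IFI6 separated in the labelled knockdown of MCF10AT1 and, by less, in that of MCF10A. Per length, IFI27 over IFI6 had a median of 0.945 in the MCF10A control (0.868 to 0.948), 1.67 in the MCF10AT1 control (0.924 to 1.82) and 1.30 in the MCF10CA1h control (0.823 to 1.54). In the labelled knockdown it was 0.330 in MCF10A (0.210 to 0.670), 0.104 in MCF10AT1 (0.0479 to 0.151) and 1.40 in MCF10CA1h (1.01 to 1.93). The ratio in the labelled knockdown of MCF10AT1 was below that of every other library, and that of MCF10A was below every control and every MCF10CA1h library. Since the ratio contains IFI27, it is given with no test. Control b of MCF10A, low in both genes, had a ratio of 0.945, between those of controls a and c.

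**Figure D4:**
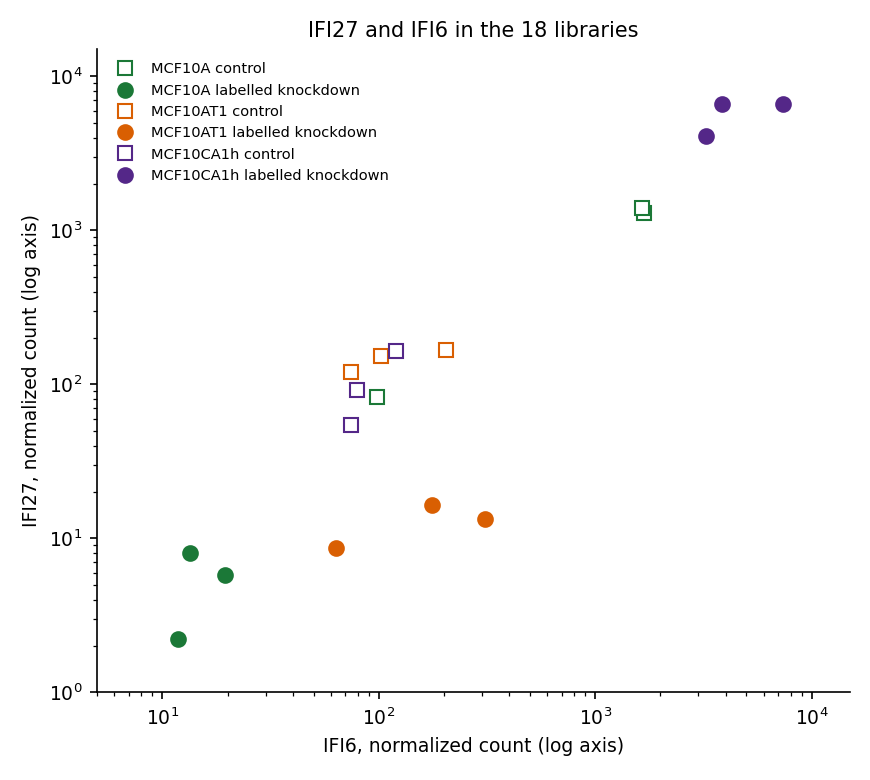
Normalized count of IFI27 (vertical) against IFI6 (horizontal) on log axes, 1 point per library, with squares for controls and circles for the labelled knockdown in the colour of the line. The 3 labelled knockdown libraries of MCF10AT1 lie apart at 8.61 to 16.4 for IFI27 with 63.7 to 310 for IFI6, and the 3 of MCF10CA1h lie at the upper right.

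The other genes of the interferon pathway were then read from lists. Ligands came first. In MCF10CA1h IFNL1, a type III interferon, rose from 2.66 ± 3.19 to 36.2 ± 12.3 (SD, n = 3, log2 fold change 3.71, limma adjusted p = 0.00827). In that line IFNL1 passed the filter on low values through the labelled knockdown. IFNB1, IFNL2 and IFNL3 were listed at 0 in the 3 controls of that line, and in the labelled knockdown they were listed at 1.16 to 7.73, 9.12 to 18.5 and 6.92 to 10.7. In the labelled knockdown of MCF10A these 3 genes were at 0. In the controls of MCF10A IFNB1 was also at 0, and IFNL2 and IFNL3 were near it (2.16 ± 1.93 and 0.31 ± 0.54, SD, n = 3). In MCF10AT1 IFNE, an epithelial type I interferon, rose from 28.9 ± 19.0 to 222 ± 98.8 (log2 fold change 2.97, adjusted p = 0.0115). IFNA2 and IFNG were not analysed here.

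Among the genes of receptors and JAK-STAT, IRF9 (log2 fold change 3.01, adjusted p = 1.8e-05) and STAT2 (1.84, adjusted p = 4.1e-05), both parts of the complex that binds the response element, rose in MCF10CA1h, where 7.91% of all genes rose and 4.85% fell. In MCF10A IRF9 fell (-1.98, adjusted p = 0.0333) and IFNLR1, the receptor chain specific to type III interferons, rose (3.26, adjusted p = 0.0173), where 1.16% of all genes rose and 1.49% fell. IFNLR1 had a mean of 7.14 in the control and 70.8 in the labelled knockdown, so it passed the filter on low values through the latter. In MCF10AT1 0 of 12 passed limma's threshold, while 3 were higher at an unadjusted p under 0.05, where 7.07% of all genes rose and 5.96% fell. The list medians were -0.25, -0.05 and 0.15 in MCF10A, MCF10AT1 and MCF10CA1h, beside medians of all genes of -0.0035, 0.02 and -0.02.

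Among 11 sensors and inducing factors, 6 rose and 0 fell in MCF10CA1h (8 and 0 at an unadjusted p under 0.05), with the RNA sensor RIGI at 3.32 (adjusted p = 7.0e-05), its relative DHX58 at 2.90 (6.7e-05) and IRF7 at 2.67 (3.3e-05). In MCF10AT1 STING1, the adaptor for cytosolic DNA (1.80, adjusted p = 0.00441), and IRF1 (1.76, adjusted p = 0.0428) rose. In MCF10A 0 of 11 passed limma's threshold, with 1 higher and 4 lower at an unadjusted p under 0.05. Of all genes 2.65%, 13.0% and 12.8% were past the threshold in MCF10A, MCF10AT1 and MCF10CA1h, and in MCF10CA1h 7.91% rose and 4.85% fell. The list medians were -0.25, 0.98 and 0.46 in MCF10A, MCF10AT1 and MCF10CA1h.

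Among the 35 interferon-stimulated effectors, the class to which IFI27 and IFI6 belong, the counts went in the same order of lines as IFI6. Of the 35, CMPK2 was not analysed here and the other 34 had values. In MCF10CA1h, where 7.91% of all genes rose and 4.85% fell, 30 of 33 tested effectors rose and 0 fell. At an unadjusted p under 0.05 these were 32 and 0, and the median log2 fold change was 2.28. Among those that rose, XAF1 (control mean 0.44) and RSAD2 (6.79) passed the filter on low values through the labelled knockdown. IFIT1 (5.93, adjusted p = 1.8e-05), IFI44 (4.82, 1.5e-05) and IFIT3 (4.38, 2.6e-05) had the largest changes there, and only IFIT1 exceeded IFI6. Without library a of the labelled knockdown 29 of 32 rose and 0 fell. In MCF10A, where 1.16% of all genes rose and 1.49% fell, the effector median was -1.03. There 0 of 33 rose and 3 fell (0 and 18 at an unadjusted p under 0.05). Those 3 were BST2, which tethers budding viruses (-5.55, adjusted p = 0.00520), IFIT1 (-4.74, adjusted p = 0.0172) and OASL (-3.31, adjusted p = 0.0187). Of them, IFIT1 (control mean 230, labelled knockdown 6.28) passed the filter on low values through the control. Without control b 0 rose and 7 fell, and with the replicate letter as a block 1 rose and 10 fell. Leaving out control a gave 2 higher and 4 lower, control c gave 0 and 2, and each labelled knockdown library gave 0 and 1.

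In MCF10AT1 8 of 31 effectors rose and 1 fell, with a median of 0.41 (11 rose and 3 fell with the block). Of all genes 7.07% rose and 5.96% fell in that line. Among the effectors that rose, SAMD9L (control mean 5.96, labelled knockdown 49.1) passed the filter on low values through the labelled knockdown. The largest rises there were BST2 (9.03, from 33.4 ± 16.8 to 17814 ± 7342, SD, n = 3, adjusted p = 2.5e-05), UBE2L6 (7.09, adjusted p = 3.8e-05) and IFITM1 (5.19, adjusted p = 1.5e-04). The one that fell was TRIM22 (-1.89, adjusted p = 0.0106), which is named because it was alone. BST2 thus fell in MCF10A and rose in MCF10AT1, whereas IFI27 was lower in both. IFIT1, the gene most like both members, had a log2 fold change of -0.67 in MCF10AT1 with a standard error of 0.65. The epithelial and mesenchymal marker shift of the labelled knockdown of MCF10AT1, given above, moved with these values, and its part was not tested. Leaving out control a or labelled knockdown b gave 5 higher and 0 lower.

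**Figure D5:**
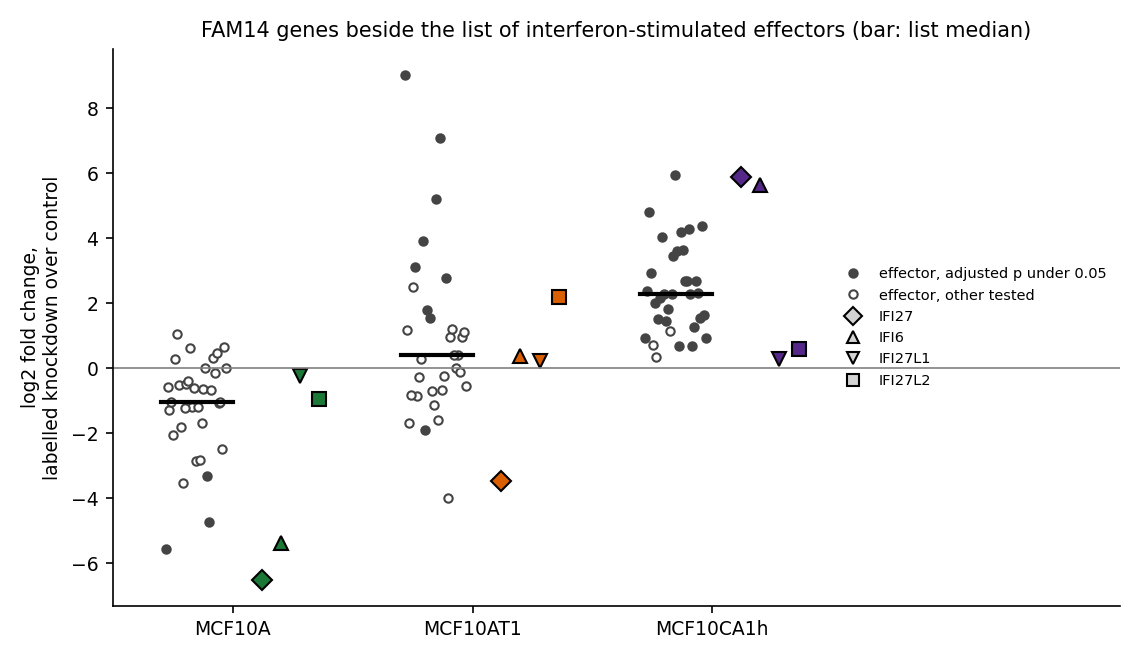
Log2 fold change of the labelled knockdown over the control (vertical axis) of the tested interferon-stimulated effectors (circles, filled where the adjusted p was under 0.05, bar at the list median) and of the 4 FAM14 genes (coloured symbols) in each line. The effector median goes from -1.03 in MCF10A through 0.41 in MCF10AT1 to 2.28 in MCF10CA1h, IFI6 follows that order, IFI27 lies at -3.46 in MCF10AT1, and IFI27L1 and IFI27L2 lie at 0.27 and 0.59 in MCF10CA1h.

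Of the 4 genes that restrain the response, ISG15, which stabilizes the brake USP18 in human cells, rose in MCF10CA1h (log2 fold change 4.83, adjusted p = 1.8e-05) together with USP18 itself (2.42, adjusted p = 2.0e-04). In MCF10AT1 SOCS3, a feedback inhibitor of JAK kinases, rose (2.24, adjusted p = 0.00309). In MCF10A 0 of 4 passed limma's threshold, where 2.65% of all genes did, and 3 were lower at an unadjusted p under 0.05. The list medians were -1.46, 0.91 and 1.80.

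Of the 3 reported partners of the members, 1 was past the threshold in MCF10AT1 and 1 in MCF10CA1h. Of all genes 2.65%, 13.0% and 12.8% were past it in MCF10A, MCF10AT1 and MCF10CA1h. NR4A1, which IFI27 binds, fell in MCF10AT1 from 3652 ± 2431 to 149 ± 101 (SD, n = 3, log2 fold change -4.46, adjusted p = 0.00629). SKP2, the ubiquitin ligase subunit that IFI27 binds, fell in MCF10CA1h (-0.78, adjusted p = 0.00632). HSPA5, which assists IFI6, had log2 fold changes of -0.37, 0.85 and -0.11 and passed the threshold in no line. The genes of the oestrogen and progesterone receptors were near the floor of the table: ESR1 was at or under 26.6 normalized counts in every library, ESR2 at or under 32.1 and PGR at or under 4.82, and of the 3, 2 and 1 tested genes of that list in MCF10A, MCF10AT1 and MCF10CA1h none passed limma's threshold (1 higher, 1 lower and 0 at an unadjusted p under 0.05).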

How the data were processed

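RNA of 18 libraries was measured, 3 per group in 6 groups taken from the titles and genotype labels. The authors pseudo-aligned paired reads to the hg38 transcriptome with kallisto 0.46.1, used tximport to sum to genes, and normalized the resulting counts by DESeq2 1.26.0 in R 4.1.1. The deposited values are thus a signal, neither read counts nor values per length. Low values were compared with whole multiples of the most frequent low value of their library. The tolerance was 0.02 reads or, for larger values, one that grew with the value. Only 17.2% to 46.0% of low values lay within it, so reads were not recovered. For that reason limma 3.58.1 in R 4.3.3 (lmFit, eBayes with an intensity trend) replaced the count test of the study, on log2(normalized count + 1) of genes whose mean over the fitted libraries reached 10, with Benjamini-Hochberg adjustment over all tested genes, a threshold of 0.05 and two-sided p-values. Fold changes on this scale understate changes of low genes. A gene low in the control or in the labelled knockdown can pass the filter through the other group alone. Each line was fitted alone, effect differences between lines in 1 fit of 18 libraries, and control levels in 1 fit of the 9 controls. Nothing says that a, b and c are separate cultures, so p-values measure only the spread between these libraries, which may be technical. Control and labelled knockdown libraries of the same letter deviated alike from their group means in MCF10A (r of 0.116 to 0.221). For MCF10AT1 this held for letters b and c (r of 0.289 and 0.477). With letter a of that line r was 0.110, and the labelled knockdown library did not correlate best with the control of its own letter. MCF10CA1h showed no such likeness for any letter (r of -0.0112 to 0.0460). Whether the letters mark pairs was therefore not settled, and the main fits do not use them.

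Symbols, coordinates and canonical transcripts came from GENCODE v44 and upstream sequences from RefSeq GRCh38.p14, both of the hg38 build; the annotation release of the study is not given in the sources used here. Of 35933 genes with values, 39 had no symbol, and for 294 the symbol was used for another gene with higher values. Summaries used SciPy 1.17.1, pandas 2.3.3 and NumPy 2.4.6 under Python 3.11.15, and figures matplotlib 3.10.9. The fit was tested on simulated data. The members, gene lists and alternatives were chosen with earlier results of these data known. The rule for naming took the 4 members, the 5 genes most like IFI27 and the 5 most like IFI6. It also took the 3 largest changes past the threshold per list and line (all genes of short lists). Added to these were the 3 nearest genes with values on each side of IFI27 and of IFI6, METTL3, and markers as ranges with the defining ones named. TRIM22, HSPA5 and genes given for how they passed the filter on low values are named beside this rule. The result of 1 gene under this rule is not reported here. As alternatives, the pseudocount was 0.5 or 5, the filter was left out or raised to a mean of 50, the trend was dropped, all lines were fitted jointly, and libraries were scaled to equal sums; further ones were the replicate letter as a block, and each library left out in turn. Correlations between members and levels per kb without or in control b of MCF10A were added after seeing the data.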

Additional observations from a re-analysis of the deposited data

Results flagged for a closer look

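The effect of the labelled knockdown differed between lines for 2 tested members by the interaction contrast of limma in the fit of all 18 libraries, and these differences are gathered here. Of all 15897 tested genes, 21.6% were past the threshold for MCF10AT1 minus MCF10A. The share was 5.34% for MCF10CA1h minus MCF10A and 18.2% for MCF10CA1h minus MCF10AT1. For IFI6 the log2 effect in MCF10AT1 exceeded that in MCF10A by 5.77 (adjusted p = 0.00188), that in MCF10CA1h exceeded MCF10A by 11.02 (adjusted p = 6.3e-05) and that in MCF10CA1h exceeded MCF10AT1 by 5.26 (adjusted p = 0.00446). For IFI27L2 the effect in MCF10AT1 exceeded that in MCF10A by 3.13 (adjusted p = 2.7e-04), and MCF10CA1h minus MCF10AT1 was -1.60 (adjusted p = 0.0369). All 3 IFI6 differences and the first of IFI27L2 stayed past the threshold without any 1 library, with the highest adjusted p at 0.0153 for IFI6 and 0.00115 for IFI27L2. Each group is 1 CRISPR line, so these differences cannot be told apart from differences between clones.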

How the results depend on the processing

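For the tested members, 190 of 198 values under alternatives other than leaving out a library kept their direction and side of the threshold, as did 250 of 297 under leaving out 1 library, and 9 of 27 results did so throughout. IFI27, which has no test, kept its direction in all 24 and 18 such values. The count of called effectors stayed within 1.5 times in 20 of 24 and 11 of 18. Without an intensity trend the calls of IFI6 in MCF10A (-5.38, adjusted p = 0.0806), of IFI27L2 in MCF10CA1h (0.59, adjusted p = 0.0922) and of IFI6 between the controls of MCF10CA1h and MCF10A (-2.85, adjusted p = 0.0548) were lost. The joint fit lost IFI27L2 in MCF10CA1h (0.59, adjusted p = 0.681) and added, between controls, IFI27L1 in MCF10CA1h minus MCF10AT1 (-1.19, adjusted p = 0.0356) and IFI6 in MCF10AT1 minus MCF10A (-2.47, adjusted p = 0.0277). No filter lost the IFI27L2 effect difference of MCF10CA1h minus MCF10AT1 (-1.60, adjusted p = 0.0548). The replicate block added that of MCF10CA1h minus MCF10A (1.53, adjusted p = 0.0292), raised the called effectors from 3 to 11 in MCF10A and from 9 to 14 in MCF10AT1, and changed no other call of a member. Called effectors in MCF10A were 5 with no filter and 8 in the joint fit. The cause of these shifts was not tested. Of all genes, 409 were called in MCF10A (237 with no trend, 1172 with the block), 2091 in MCF10AT1 (3939 with the block, 5146 in the joint fit) and 1929 in MCF10CA1h (1123 with no trend, 248 in the joint fit).

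Leaving out 1 library gave ranges of -6.73 to -4.69 for IFI6, -0.46 to 0.18 for IFI27L1, -1.04 to -0.77 for IFI27L2 and -7.85 to -5.83 for IFI27 in MCF10A. In MCF10AT1 they were -0.12 to 1.01 for IFI6, -0.14 to 0.65 for IFI27L1, 1.73 to 2.62 for IFI27L2 and -3.65 to -3.22 for IFI27. In MCF10CA1h they were 5.29 to 5.88 for IFI6, 0.0651 to 0.41 for IFI27L1, 0.43 to 0.68 for IFI27L2 and 5.50 to 6.30 for IFI27. Called effectors ranged from 1 to 7, 5 to 9 and 29 to 31, and called genes from 52 to 1418, 1020 to 2439 and 1089 to 1785, in MCF10A, MCF10AT1 and MCF10CA1h. Effect differences of IFI27L2 were 2.68 to 3.57 (MCF10AT1 minus MCF10A), 1.36 to 1.62 (MCF10CA1h minus MCF10A, called without control b or c of MCF10AT1, adjusted p = 0.0319 and 0.0273) and -2.03 to -1.14 (MCF10CA1h minus MCF10AT1), and those of IFI27L1 in MCF10CA1h minus MCF10AT1 -0.37 to 0.42. Between controls, MCF10AT1 minus MCF10A gave 0.56 to 1.37 for IFI27L1, 0.0161 to 0.91 for IFI27L2 and -3.83 to -1.79 for IFI6. MCF10CA1h minus MCF10A gave -0.45 to 0.18, 1.20 to 1.46 and -4.20 to -2.16, and MCF10CA1h minus MCF10AT1 gave -1.57 to -0.79, 0.38 to 1.27 and -0.69 to 0.0278. Equal library sums moved the median log2 fold change of all genes in MCF10AT1 from 0.02 to -0.15, a shift of -0.17, and no member changed its call or direction. A group left with 2 libraries was assumed to vary like the others. The read depth per gene is unknown, so low values such as IFI27 in the labelled knockdown of MCF10A carry an unknown counting error.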
